A study of Drosophila melanogaster with 62 samples.

Results

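The step from nuclear cycle 12 (NC12) to nuclear cycle 13 (NC13) was followed in *brat*-mutant *Drosophila* embryos, using 7 of the 62 single-embryo and single-oocyte libraries of the study. The members were chosen by their sample labels alone: 4 embryos at NC12 (A, B, C and D) and 3 at NC13 (A, C and D). Each library came from a separate embryo. All 7 embryos were laid by mothers with the *fs1* allele of *brat* over the deficiency Df(2L)TE37C-7, which were crossed to their brothers and carried His2Av-RFP on the third chromosome. The red histone let nuclear density be read under the microscope, and each embryo was collected about midway through its cycle. Such embryos lack functional BRAT and do not survive. The zygotic genotype of single embryos is not given. *HisRFP* embryos, with the same histone transgene and wild-type *brat*, gave the same step in controls (4 at NC12 and 3 at NC13).

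The early fly embryo divides as a syncytium, with nuclei that share a cytoplasm loaded by the mother with mRNA and protein. Over the last syncytial cycles the maternal mRNAs are cleared, while the zygotic genome is switched on in waves that depend on the pioneer factor Zelda (ZLD). Short, intron-poor genes are usually transcribed first, because the early cycles are brief. BRAT is an RNA-binding protein that represses the translation and stability of maternal mRNAs, among them *hunchback*, where it acts with Nanos and Pumilio, and the mRNA for ZLD itself.

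Levels are in CPM (counts scaled to the same library size, with TMM factors over all libraries), and differences are log2 fold changes of NC13 over NC12. Depth differed with stage: NC12 libraries held 8263227 to 10770047 counted reads and NC13 libraries 23052944 to 37694375. Stage and sequencing depth cannot be told apart in these libraries. Bulk RNA from a whole embryo also cannot separate fewer nuclei expressing a gene from less RNA per nucleus. All 8 syncytial blastoderm markers were measured, and their summed level was 2286 to 3009 CPM at NC12 and 3446 to 6121 CPM at NC13. Of 18 follicle cell and eggshell markers none reached 50 reads over the 7 libraries, and their summed level was at most 3.03 CPM, in NC13 embryo C. That embryo also had the highest summed levels of the haemocyte markers (10.5 CPM, against 4.14 to 9.66 in the other 6), the neuron markers (5.51 CPM, against 0.356 to 2.15) and the Hox genes (4.79 CPM, against 0 to 1.93). The part of such RNA in the results was not tested.

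Each embryo was placed between the mean of NC10 embryos (0%) and the mean of early NC14 embryos (100%) of its genotype, an axis built without any NC12 or NC13 library. Over 10445 genes, NC12 embryos A, B, C and D lay 29.3%, 55.7%, 21.2% and 38.6% of the way. NC13 embryos A, C and D lay at 98.8%, 60.5% and 63.8%. Every NC13 embryo was therefore beyond every NC12 embryo (36.2% ± 14.8, SD, n = 4, against 74.4% ± 21.2, n = 3). The exact two-sided permutation p was 0.0571, the smallest that 4 against 3 can give. Both groups were spread widely: NC12 embryo B lay near the NC13 embryos C and D, and NC13 embryo A had nearly reached the early NC14 mean. The *HisRFP* embryos showed the same kind of spread, with NC12 embryo C at 45.9% and NC13 embryo C at 96.2%.

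**Figure D1:**
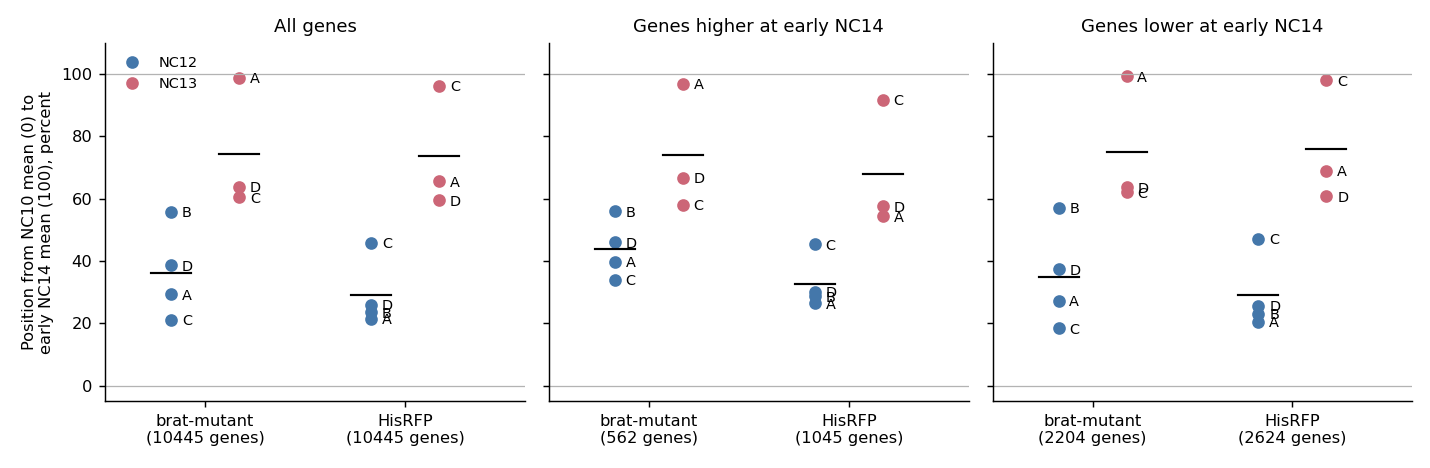
Position of each embryo (points, lettered) between its genotype's NC10 mean (0%) and early NC14 mean (100%), on the y axis in percent, over all genes, over genes at least 1 higher (log2) at early NC14 and over genes at least 1 lower, with bars at the group means. In *brat* mutants NC12 embryo B (55.7% over all genes) and NC13 embryo A (98.8%) stand apart from the embryos of their stage.

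The same 2 embryos stood apart gene by gene. Among 5561 genes of at least 5 CPM at NC13, embryo A was over 1 (log2) below both other embryos in 739 genes and above both in 106. Embryo C was apart in this way below in 33 genes and above in 10, and embryo D in 6 and 13. Among 5855 genes at NC12, embryo B was over 1 below the other embryos in 257 genes and above them in 9. The spread entered every test that follows. It was described by the biological coefficient of variation (the relative spread between embryos of a group), 0.331 here and 0.32 in *HisRFP*.

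With this spread, edgeR's quasi-likelihood test called no gene with both an adjusted p (Benjamini-Hochberg) below 0.05 and a log2 fold change beyond 1 in size. The count was 0% of 7132 genes in either direction, and the smallest adjusted p was 0.0878. At an unadjusted p under 0.05 there were 2849 genes. The same test called 193 genes higher and 994 lower when genes with as little as 1 read were kept, and 333 and 1075 when all 62 libraries shared the fit. DESeq2's Wald test, with the same thresholds, called 137 genes higher (1.94% of 7078) and 940 lower (13.3%). A further rule used no p: every NC13 embryo beyond every NC12 embryo, with a log2 fold change larger than 1 in size. Genes that met it are called separated here, and they numbered 164 higher (2.30% of 7132) and 753 lower (10.6%). Of the 164, 105 were under 5 CPM at NC13, as were 104 of the 753 at NC12, and the 164 became 88 with NC13 thinned to the depth of NC12 and 81 under edgeR's own filter on low counts. Without NC12 embryo B the counts were 250 and 1364, without NC13 embryo A 131 and 492, and without NC13 embryo C 197 and 1171. DESeq2 also called 92 of the 164 and 653 of the 753. Leaving out NC13 embryo A and NC12 embryo B together, a choice made after their positions were seen, edgeR called 107 genes higher (1.55% of 6900) and 876 lower (12.7%). Without either of these embryos alone edgeR called none. DESeq2's counts moved to 39 higher and 522 lower without NC13 embryo A, to 65 and 259 without NC12 embryo A and to 59 and 167 without NC12 embryo C. In each of these counts more genes were lower at NC13 than higher, but without the threshold on size every NC13 embryo was higher in 1375 genes and lower in 1187.

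Among the separated genes with the highest levels at NC13 were several of cellularization, the process that will enclose the blastoderm nuclei in membrane. Of 6 zygotic cellularization genes 5 were tested and 4 were separated higher (80.0%, beside 2.30% of all genes). DESeq2 called 4 higher, beside 1.94% of all genes it tested. Without the pair of embryos that stood apart edgeR also called 4 higher, beside 1.55% of all genes. The median log2 fold change of the 5 was 1.65, beside 0.03 over all genes tested.

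*slam*, which organizes the cleavage furrow, lies on chromosome 2L (6372388 to 6377284, plus strand, dm6). Its level was 466, 730, 412.5 and 538 CPM in NC12 embryos A, B, C and D and 2760, 920 and 1165 CPM in NC13 embryos A, C and D. The log2 fold change was 1.52 (SE 0.36), with an adjusted p of 0.0878 by edgeR's quasi-likelihood test and 0.00215 by DESeq2. Within NC12 embryo B was the highest, and within NC13 embryo A was far above the others.

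*bnk* (bottleneck), which restrains the contraction of the furrow's actin network, was at 84.7, 186, 108 and 126 CPM at NC12 and 719, 210 and 334 CPM at NC13 (log2 1.67, SE 0.41). NC13 embryo C was only slightly above NC12 embryo B. *dunk* and *halo*, the latter a cofactor of lipid droplet transport, had log2 fold changes of 1.65 and 2.04. *nullo*, which stabilizes the basal junctions of the furrow, overlapped between stages: 50.3 to 134 CPM at NC12 and 112 to 250 CPM at NC13 (log2 0.87, SE 0.40). *Nrt* (Neurotactin), a cell adhesion protein of the same membranes, was at 150 to 258 CPM at NC12 and 327 to 1027 CPM at NC13 (log2 1.51).

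The subunits of the ELBA insulator complex, which are made in a short window of early development, were separated as well. *Elba1* was at 71.8, 182, 63.0 and 106 CPM at NC12 and 846, 206 and 379 CPM at NC13 (log2 2.1, SE 0.51). The level of *Elba3*, which lies close to it on 2L, was 63.5, 181, 54.2 and 92.5 CPM against 762, 195 and 330 CPM (log2 2.06, SE 0.53). *Elba2* was also separated, at log2 1.01 (SE 0.25), and *insv*, a related DNA-binding factor, had every NC13 embryo higher but a log2 fold change of 0.65. The gap was narrow in each case, since NC12 embryo B came close to NC13 embryo C. These 3 ELBA genes were the only separated members of 10 genome activators and chromatin factors.

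*zld* itself, on the X chromosome (19766465 to 19783548), showed no such step. It was at 1665, 1731, 1277 and 1149 CPM at NC12 and 2175, 2060 and 1706 CPM at NC13, so that NC12 embryo B and NC13 embryo D overlapped. The log2 fold change was 0.40 (SE 0.17), with an adjusted p of 0.118 by edgeR and 0.0895 by DESeq2, and it was 0.28 in *HisRFP*. *Act5C*, used as a reference gene in the study, was higher in every NC13 embryo (3576 to 4298 CPM against 4400 to 6390 CPM) at a log2 fold change of 0.35.

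**Figure D2:**
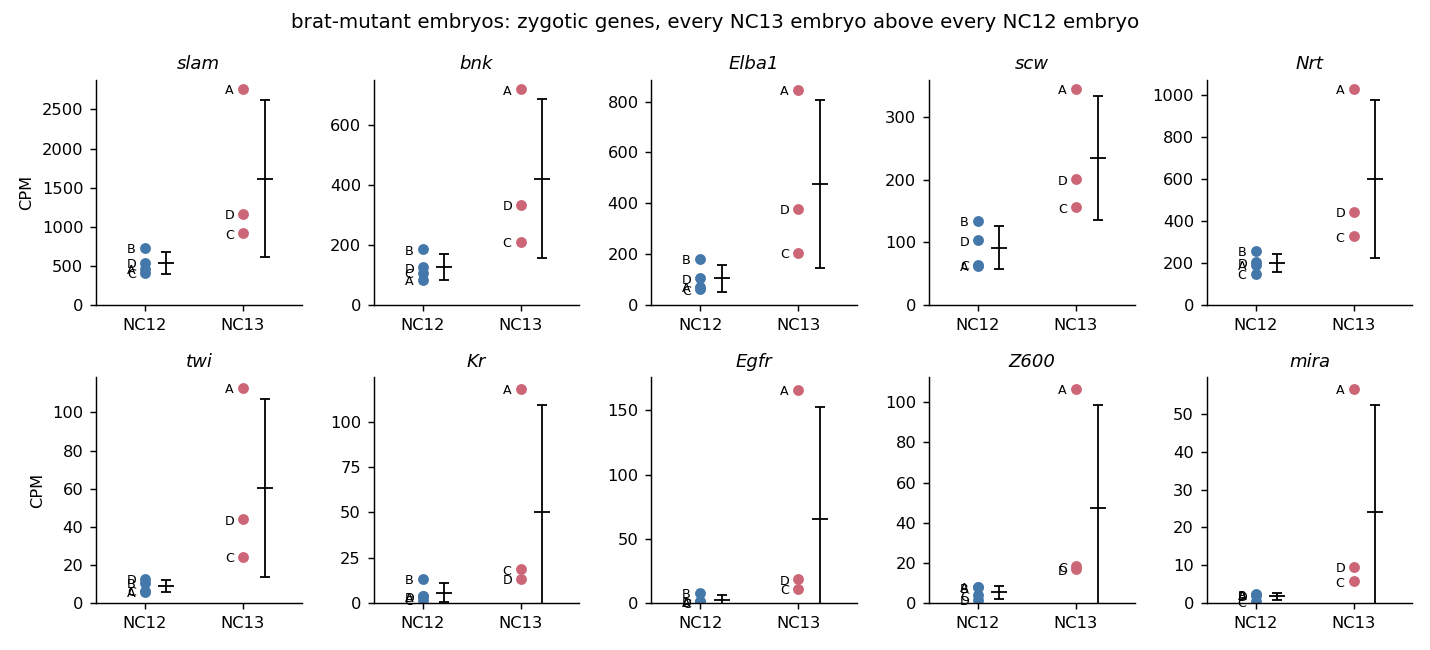
CPM (y axes, linear, from 0) of 10 genes in the 4 NC12 and 3 NC13 *brat*-mutant embryos (lettered points), with mean and SD beside each group (SD bars are cut at 0). In each gene every NC13 embryo lies above every NC12 embryo, in *Kr* by a margin that rounds away. In all of them but *scw* embryo A carries most of the NC13 mean.

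Zygotic genes were also read by the timing classes that the study took from earlier work, named Early, Mid, Late and Later after when their transcription begins. Of 73 Early genes tested, 24 were separated higher and none lower (32.9%, beside 2.30% of all genes), with a median log2 fold change of 1.06. DESeq2 called 32 of them higher, and edgeR without the pair of embryos called 27. Of 76 Mid genes, 23 were separated higher (30.3%) and the median was 2.21. Late genes were tested in 67 of 122 cases, with 24 separated higher, 1 lower and a median of 2.60. Without the pair of embryos edgeR called 29 of 64 Mid genes higher, and of 38 Late genes 5 higher and 2 lower. Only 27 of 88 Later genes had enough reads to test, and 4 of these were separated higher. The filter of 50 reads summed both stages, so a gene near 0 at NC12 could pass it through the deeper NC13 libraries alone. Higher values at NC13 were favoured among such genes, so the Late and Later counts, and part of the Mid counts, are no independent support for a rise. Without NC13 embryo A the medians were 0.63 for the Early, 1.30 for the Mid and 0.58 for the Late class. Only 39 Late and 65 Mid genes were tested without that embryo. The median of the Later class (1.29) was -0.03 without NC13 embryo C. With NC13 thinned to the depth of NC12 the medians were 1.99 for the Late and -0.08 for the Later class.

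The summed level of the Early class was 1460, 2968, 1501 and 2276 CPM in NC12 embryos A to D and 10275, 3000 and 4438 CPM in NC13 embryos A, C and D. For the Mid class it was 198, 508, 123 and 254 CPM against 3461, 484 and 661 CPM. NC13 embryo C was thus just above NC12 embryo B for the Early class and just below it for the Mid class. The Mid class had 1 to 26 members without a read at NC12 and none at NC13, where the libraries were deeper.

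The largest positive fold changes belonged to genes with almost no reads at NC12, among them patterning regulators and receptors. *Egfr*, the EGF receptor, on 2R (21522420 to 21559977, plus strand), was at 1.33, 7.96, 0.436 and 0.891 CPM at NC12 and 166, 11.2 and 18.3 CPM at NC13 (log2 4.54, SE 1.23). Most of its NC13 signal came from embryo A, and NC12 embryo B lay far above its stage. Leaving out single libraries and the other settings moved its log2 fold change between 2.47 and 6.12.

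The same pattern, a trace at NC12 and most of the NC13 signal in embryo A, held for other genes of this kind. *ec* (echinus) was at 0.178 to 0.743 CPM at NC12 and 41.5, 2.19 and 6.23 CPM at NC13, and *sca* (scabrous), a secreted neurogenic factor, at 0.106 to 0.444 CPM and 46.0, 0.547 and 1.34 CPM. The corepressor gene *nvy* had 0.106 CPM in NC12 embryo B and no read in the other 3, and 20.8, 0.547 and 0.524 CPM at NC13. *CG34334* differed from these in having embryos A and C both high, at 61.4 and 25.1 CPM, beside 6.52 CPM in D and 0.0888 to 1.69 CPM at NC12. DESeq2 called *ec* and *CG34334* higher and gave *sca* and *nvy* no adjusted p.

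*Kr*, a gap gene that patterns the middle of the embryo, was at 3.64, 13.4, 1.74 and 3.74 CPM at NC12 and 118, 18.5 and 13.4 CPM at NC13 (log2 3.07, SE 0.92). NC12 embryo B and NC13 embryo D both round to 13.4 CPM, so the gap between stages was next to nothing. Among the 6 gap genes tested *Kr* was the only one separated (16.7%, beside 2.30% of all genes separated higher). *hb* (hunchback), the target of Nanos, Pumilio and BRAT in the posterior embryo, ranged from 338 to 525 CPM at NC12 and stood at 166, 456 and 823 CPM in NC13 embryos A, C and D. Its log2 fold change was 0.12 (SE 0.47), and it ran from -0.51 to 0.66 over the settings. *gt* and *tll* also overlapped between stages (log2 -0.47 and -0.58).

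Mesoderm genes split. *twi*, the activator of the mesoderm programme, was at 5.77, 10.7, 6.32 and 12.6 CPM at NC12 and 113, 24.2 and 43.8 CPM at NC13, with a clear gap between stages. Its log2 fold change was 2.69 (SE 0.52), and DESeq2 gave an adjusted p of 6.29e-05, although 22.4% of its exonic bases are shared with another gene in these counts made without strand. *sna*, the repressor that bounds the mesoderm, was separated at log2 1.01, just inside the threshold, at 15.9 to 28.7 CPM against 29.2 to 69.4 CPM. *Mef2*, a muscle determinant that is also loaded into the egg, was lower in every NC13 embryo (90.7 to 151 CPM against 11.7 to 73.1 CPM, log2 -1.30), and so was the Toll-family receptor *Tollo* (log2 -1.67).

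On the dorsal side 4 of 11 genes tested were separated higher (36.4%, beside 2.30% of all genes), and their median of 1.30 was 0.65 without NC13 embryo A. *scw*, a BMP ligand, was at 62.6, 134, 64.5 and 103 CPM at NC12 and 344.5, 156 and 201 CPM at NC13 (log2 1.30, SE 0.34). *tsg*, which carries BMP ligands, and *Ance*, a peptidase of the amnioserosa, were separated at log2 1.05 and 3.93. *dpp*, the main BMP ligand, was not: NC12 embryo B (7.11 CPM) exceeded NC13 embryos C and D (4.67 and 5.24 CPM). *zen* (log2 0.97) and the protease gene *tld* (log2 1.79) overlapped between stages for the same reason.

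In the neuroectoderm 3 of 10 genes tested were separated higher and 1 lower, beside 2.30% and 10.6% of all genes. DESeq2 called 1 higher and 1 lower. The gene separated lower is not among those described next. *brk*, a repressor of BMP targets, was at 0 to 0.535 CPM at NC12 and at 19.2, 2.1 and 1.76 CPM at NC13. *rho*, which releases EGF ligands, was separated at log2 1.89 (0.545 to 2.23 CPM against 3.62 to 9.60 CPM), and *vnd* was at 0.0891 to 0.266 CPM against 0.841 to 9.99 CPM. *sog*, the BMP antagonist, followed no stage: it was at 33.0 and 34.6 CPM in NC12 embryos A and C, at 0.318 and 0.446 CPM in B and D, and at 72.0, 1.93 and 3.56 CPM at NC13. The SOX gene *D* had 70.1 CPM in NC12 embryo B, against 5.45 to 11.1 CPM in the other NC12 embryos, and 392, 73.0 and 45.2 CPM at NC13.

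The Notch ligand *Delta* was higher in every NC13 embryo (281.5 to 343 CPM against 395 to 446 CPM) at log2 0.29, and its pathway inhibitor *Brd* overlapped between stages (log2 -0.79). Pair-rule genes were not separated in any of 9 cases. *eve* and *ftz*, 2 of the first to form stripes, were at 51.8 to 171 CPM and 21.4 to 45.1 CPM at NC12 and at 50.5 to 118 CPM and 17 to 75.8 CPM at NC13. None of the 8 Hox genes reached 50 reads. *wg* (wingless) had 0 to 0.318 CPM at NC12 and 3.07, 0.673 and 0.629 CPM at NC13. *mira*, an adaptor of neuroblast division, stood at 0.436 to 2.23 CPM at NC12 and was at 56.6, 5.76 and 9.61 CPM at NC13 (log2 3.69, SE 0.86).

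The syncytial cycles lengthen at this step, under regulators of mitotic entry. *Z600* (frühstart), a zygotic inhibitor of cyclin-dependent kinase, was at 1.51 to 7.99 CPM at NC12 and 107, 18.2 and 16.7 CPM at NC13 (log2 3.10, SE 0.79), with 30.5% of its exonic bases shared. *trbl* (tribbles), which drives the turnover of String, was separated at log2 1.11 (42.6 to 50.4 CPM against 60.4 to 188 CPM). *stg* (string), the Cdc25 phosphatase that tribbles acts on, lay at 1261 to 1552 CPM at NC12 and 1255 to 1373 CPM at NC13. *Myt1* and *fzr*, an inhibitory kinase and an activator of cyclin destruction, were separated lower at log2 -1.37 and -1.21. *CycB* and *CycE* overlapped between stages, and the 18 regulators as a list had a median of -0.03.

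None of 10 genes of the sex signal was separated, and their median was 0.58. Of these *dpn* was called higher and *da* lower by DESeq2. The values of *roX1*, *Sxl*, *sisA* and *msl-2*, singled out after they were seen, were highest in NC13 embryo A. *lncRNA:roX1*, an RNA of the male dosage compensation complex, was at 395 CPM in NC13 embryo A, 20.3 and 55.6 CPM in C and D, and 2.73 to 26.4 CPM at NC12. *Sxl*, the female switch gene, was at 171 CPM in NC13 embryo A and at 10.6 and 13.9 CPM in C and D, beside 13.5 to 37.5 CPM at NC12. Without NC13 embryo A its log2 fold change went from 1.17 to -1.13 in DESeq2. The X-counting gene *sisA* had 210 CPM in embryo A, against 17.1 to 58.5 CPM in the other 6. *msl-2* showed the same order, with 25.1 CPM in embryo A and 1.31 to 2.12 CPM in the other 6.

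The larger set of genes was lower at NC13, and it was led by mRNAs that the mother deposits. Germ plasm mRNAs, which localize to the posterior pole and enter the future germ cells, had 5 of 9 members separated lower (55.6%, beside 10.6% of all genes), with a median log2 fold change of -2.07. DESeq2 called 6 of the 9 lower, as did edgeR without the pair of embryos.

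*nanos*, the posterior determinant and partner of BRAT, on 3R (19157238 to 19160202, plus strand), was at 45.0, 163, 241 and 117 CPM in NC12 embryos A to D. In NC13 embryos A, C and D it was at 5.48, 11.8 and 19.9 CPM. The log2 fold change was -3.54 (SE 0.68), with an adjusted p of 0.0878 by edgeR and 9.25e-07 by DESeq2, and it stayed between -4.07 and -3.07 under every setting run. *pgc*, which silences transcription in pole cells, was at 60.8 to 146 CPM against 4.51, 12.4 and 17.5 CPM (log2 -2.98, SE 0.55), with 46.9% of its exonic bases shared.

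*osk* (oskar), the organizer of the germ plasm, was at 289, 117, 366 and 109 CPM at NC12 and 9.68, 44.7 and 45.9 CPM at NC13 (log2 -2.74, SE 0.69). *Hsp83*, the fly Hsp90, was at 891, 340, 1179 and 573.5 CPM at NC12 and 40.3, 237 and 195 CPM at NC13 (log2 -2.26, SE 0.67). In both genes NC13 embryo A held a small fraction of what embryos C and D held. *vas*, the germline helicase, was also separated lower at log2 -1.96, while *tud* (log2 -2.07) just overlapped, at 39.3 CPM in NC12 embryo B and 40.3 CPM in NC13 embryo C. *gcl* was lower in every NC13 embryo but at log2 -0.52, and *aub* (log2 -0.06, SE 0.14) and *CycB* (log2 -0.21) overlapped.

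Maternal axis determinants had 5 of 10 members separated lower (50%, beside 10.6% of all genes), *nanos* and *osk* among them. Their median of -0.88 was -0.42 without NC13 embryo A and -1.69 without NC13 embryo D, and edgeR without the pair of embryos called 3. *dl* (dorsal), the NF-kappaB factor of the dorsoventral axis, was at 61.0, 23.0, 90.5 and 41.2 CPM at NC12 and 4.25, 15.2 and 12.8 CPM at NC13 (log2 -2.34, SE 0.60). *spz*, the ligand of Toll, was separated at log2 -1.41. Its receptor *Tl* went the other way, at 1064 to 1324 CPM at NC12 and 1530 to 2316 CPM at NC13 (log2 0.49, SE 0.15). *cact*, the inhibitor of Dorsal, overlapped. *bcd*, the anterior determinant, varied more between embryos of a stage than between stages: it was at 343, 88.5, 41.9 and 226 CPM at NC12 and 12.9, 31.7 and 332 CPM at NC13.

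**Figure D3:**
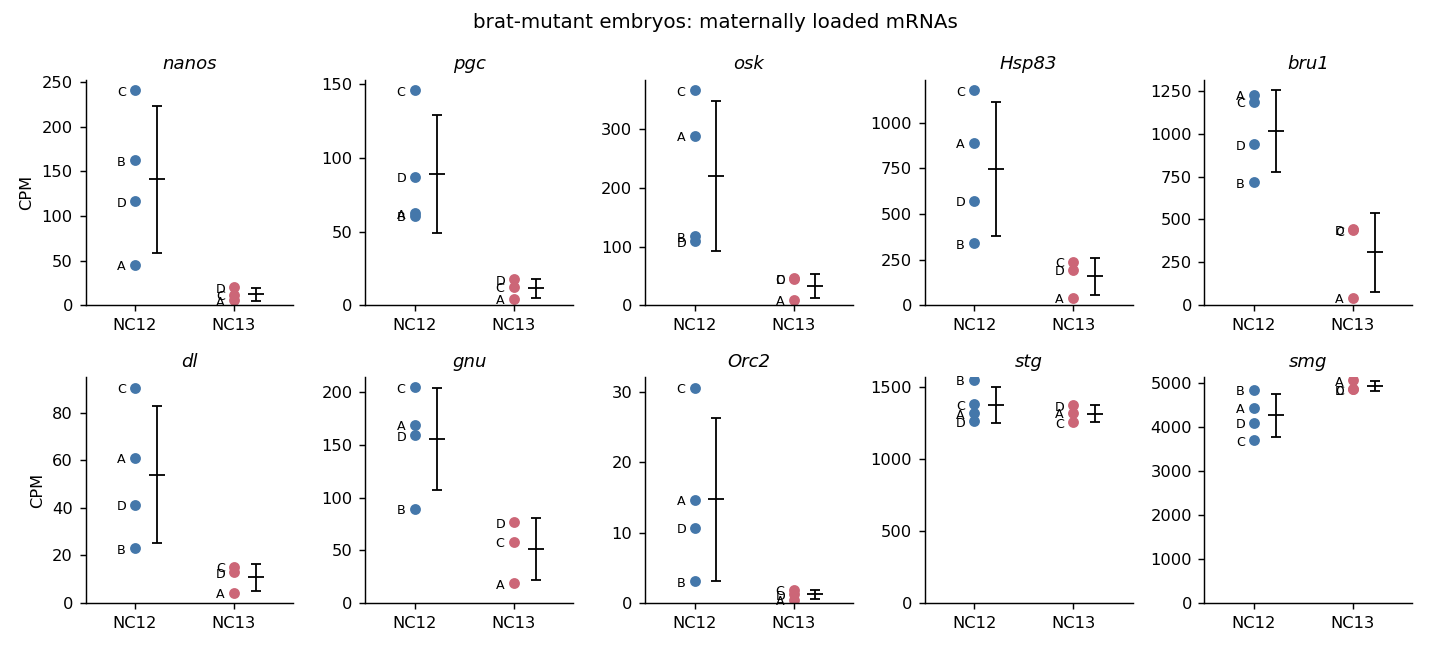
CPM (y axes, linear, from 0) of 10 maternally loaded mRNAs in the 4 NC12 and 3 NC13 *brat*-mutant embryos (lettered points), with mean and SD beside each group. *nanos* to *Orc2* lie lower in every NC13 embryo, embryo A lowest, while *stg* and *smg* stay near their NC12 levels.

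A list of mRNA repression and decay factors had 4 of 17 members separated lower (23.5%, beside 10.6% of all genes), *nanos* among them. The list also holds genes of other roles, such as *orb* and the Pan Gu kinase genes. *bru1* (bruno), a translational repressor of *oskar*, was at 1227, 716, 1186 and 938 CPM at NC12 and 42.5, 436 and 443.5 CPM at NC13 (log2 -1.74, SE 0.70). *orb*, a cytoplasmic polyadenylation factor, was separated at log2 -2.25. *gnu*, a subunit of the Pan Gu kinase that starts translation in the egg, was at 169, 89.2, 205 and 159 CPM against 18.5, 58.0 and 76.7 CPM (log2 -1.63, SE 0.50). Its partner *plu* was also lower in every NC13 embryo (34.0 to 42.1 CPM against 16.3 to 29.3 CPM, log2 -0.77).

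Other members of that list differed by less than 1 on the log2 scale, apart from *png*, the kinase partner of *gnu* and *plu*, which overlapped between stages at log2 -1.20. *smg* (smaug), which recruits the deadenylase to maternal mRNAs, was at 3704 to 4855 CPM at NC12 and 4866 to 5069 CPM at NC13. The deadenylase genes *twin* and *Pop2* and the helicase gene *bel* were lower in every NC13 embryo, at log2 -0.88, -0.42 and -0.38, and *me31B*, *tral*, *Not1* and *eIF4E1* overlapped between stages. *pum*, the partner of BRAT, stood at 1039 to 1400 CPM against 1018 to 1363 CPM. The mRNA of *brat* itself was detected throughout, at 592 to 723 CPM against 753 to 1105 CPM (log2 0.38, SE 0.14), which measures the transcript and not BRAT function.

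The fold changes furthest below 0 outside the germ plasm included DNA replication factors. *Orc2*, of the origin recognition complex, was at 14.7, 3.08, 30.6 and 10.7 CPM at NC12 and 0.482, 1.89 and 1.23 CPM at NC13 (log2 -3.63, SE 0.84). *Cdc45* and *PolA2*, parts of the helicase and of the primase complex, were separated at log2 -2.92 and -2.93. These 3 were picked after their values were seen from the 20 separated genes with the lowest fold changes, which also held *CG8180* (15 to 144 CPM at NC12 and 2.50 to 9.20 CPM at NC13), *Chchd2* and *lap*. In all of them NC12 embryo B lay below the other NC12 embryos.

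The most abundant mRNAs among those separated lower included *Pxt* and *Lsd-2*, a cyclooxygenase-like enzyme and a lipid droplet protein (log2 -1.52 and -1.48). *Atpalpha*, the sodium pump, was at 245 to 609 CPM at NC12 and 110 to 234.5 CPM at NC13 (log2 -1.48, SE 0.39). *blw*, the alpha subunit of mitochondrial ATP synthase, was separated at log2 -1.17. Heat shock genes had 6 members tested, all below 0, beside 3428 of all 7132 genes tested. Of the 6, *Hsp83* and *Hsp26* were separated (33.3%, beside 10.6% of all genes).

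Lists of housekeeping machinery had medians from -0.28 to 0.28, beside 0.03 over all genes tested. Of 85 cytosolic ribosomal protein genes tested 80 were above 0, beside 3704 of all 7132 genes tested. None was separated, and the median was 0.28. Their share of the libraries was highest in NC13 embryo A, 116098 CPM against 67734 to 87720 CPM in the other 6. Proteasome subunits had 5 of 33 separated lower (15.2%, beside 10.6%), among them *Rpn8* at log2 -1.78, and mitochondrial ribosomal proteins 6 of 71. Of 61 genes tested on the oxidative phosphorylation list none was separated, but that list leaves out *blw*, which was separated lower.

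Among genes separated higher the median gene span was 5350 bases and 23.3% had a single exon, beside 2840 bases and 10.4% of all genes tested. Of these 164 genes, 105 were under 5 CPM at NC13, and such genes could pass the filter through the deeper NC13 libraries alone. Whether the span and exon shares are traits of genes that rise was therefore not tested. Genes separated lower had a median span of 3066 bases and 9.18% single-exon genes. The X chromosome held 14.1% of the former, 19.5% of the latter and 18.1% of all genes.

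Which embryo set a gene's group range was far from even. NC13 embryo A was the highest NC13 embryo in 119 of the 164 genes separated higher and the lowest in 721 of the 753 separated lower. NC12 embryo B was the highest NC12 embryo in 83 and the lowest in 661 of the same genes. The genes next to the threshold of 1 were *sna* and *CG13712* (log2 1.01 each) inside it and *Gp210* (0.99) and *Sdr* (0.94) outside. *Sdr*, a secreted decoy of the insulin receptor, had the tightest groups of these: 23.2 to 33.6 CPM at NC12 and 58.5, 60.0 and 55.0 CPM at NC13.

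The same step in *HisRFP* embryos shares no library with the one described. There edgeR called 177 genes higher (2.52% of 7018) and 1398 lower (19.9%), and by the rule without a p 177 were separated higher and 1473 lower (21.0%). Without *HisRFP* NC12 embryo A, B or D or NC13 embryo A, each in turn, edgeR called none, and without NC13 embryo C it called 95 higher. Across the 6868 genes tested in both genotypes the fold changes had a Pearson r of 0.88 and shared their sign in 86.4%, as a description across genes, which are not independent replicates. Of 1389 genes called lower in *HisRFP*, 1360 (97.9%) were below 0 in *brat* mutants, beside 3428 of all 7132 genes tested. The median of the 1389 was -2.03 in *HisRFP* and -1.34 in *brat* mutants. Of 159 called higher in *HisRFP*, 151 were above 0 in *brat* mutants, beside 3704 of the 7132. Their medians were 2.38 and 1.87. Both sets were chosen by their *HisRFP* values, so smaller medians in *brat* mutants can follow from that choice alone.

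Medians of the lists were set side by side without a test. Over the genes tested in both, the Early class had medians of 1.05 in *brat* mutants and 1.30 in *HisRFP*, the Mid class 2.15 and 2.66, and germ plasm mRNAs -2.07 and -2.49. For the study's own clusters of genes with higher expression in *brat* mutants they were -0.69 and -1.72 for cluster 1 (417 genes) and -0.72 and -1.43 for cluster 3 (308 genes), -0.11 and -0.67 for cluster 2, 0.31 and 0.22 for cluster 4, 0.28 and 0.39 for cluster 5 and -0.33 and -0.81 for cluster 6. Without NC13 embryo A the *brat*-mutant medians over all genes tested of clusters 1 and 3 were -0.45 and -0.42, in place of -0.69 and -0.64. The study chose those clusters on these samples, so their direction is not independent evidence. Clustered genes that the study marks as bound by BRAT had medians of -0.41 and -1.23 (502 genes), and those not bound -0.31 and -0.92 (657 genes). In *brat* mutants 95 of 513 bound genes were separated lower (18.5%, beside 10.6% of all genes), among them *Pi3K21B* at log2 -2.77, and 101 of 755 not bound (13.4%).

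**Figure D4:**
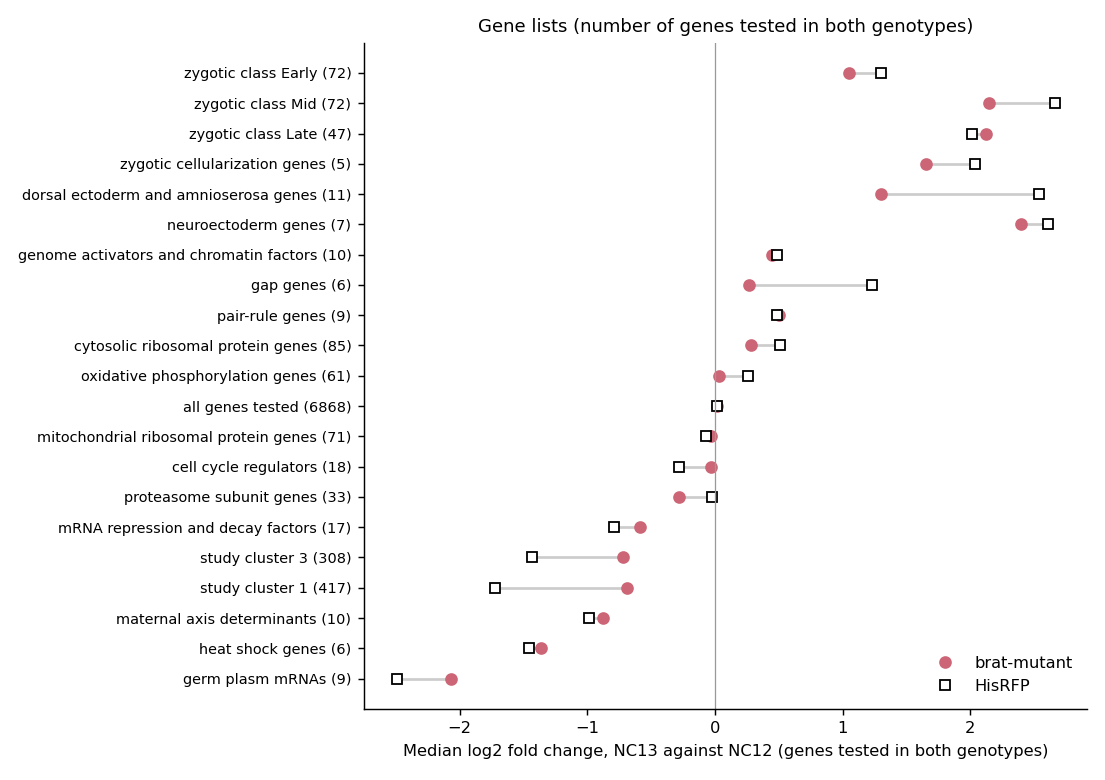
Median log2 fold change, NC13 against NC12 (x axis), of each gene list in *brat*-mutant (filled circles) and *HisRFP* embryos (open squares), over genes tested in both genotypes (number in brackets). Study clusters 1 and 3 have medians of -0.69 and -0.72 in *brat* mutants and -1.72 and -1.43 in *HisRFP*, while germ plasm mRNAs lie below -2 in both.

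The difference between genotypes was tested by the interaction of stage and genotype over the 14 libraries. edgeR called 2 of 7635 genes (0.0262%), both with the more positive change in *brat* mutants, and none with the more negative. At an unadjusted p under 0.05 there were 407 genes of the first kind and 96 of the second. DESeq2 called 74 and 4.

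*VhaAC45*, an accessory subunit of the vacuolar proton pump (V-ATPase), on 2R (9207561 to 9209774), was at 265, 297, 246 and 268 CPM at NC12 and 406, 333.5 and 310 CPM at NC13 in *brat* mutants. In *HisRFP* embryos it was at 192 to 207 CPM at NC12 and 107 to 134 CPM at NC13. The changes were 0.33 and -0.71, and their difference was 1.07 (SE 0.15, adjusted p 0.0461 by edgeR). *CG5273*, on the X chromosome (759594 to 761939), was at 237 to 293 CPM at NC12 and 187 to 240 CPM at NC13 in *brat* mutants, against 153 to 259.5 CPM and 27.1 to 50.3 CPM in *HisRFP*. Its difference was 2.17 (SE 0.31, adjusted p 0.0461 by edgeR). With the replicate letter as a replicate block no gene was called, nor without any single one of the mutant NC12 embryos or NC13 embryos A and C, or of *HisRFP* NC12 embryos B and D.

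Other V-ATPase genes were looked up after that value was seen, so they carry no test. Of 17 V-ATPase genes measured, log2 fold changes ran from -0.17 to 0.39 in *brat* mutants and from -2.65 to 0.51 in *HisRFP*. In 14 of them the change was more positive in the mutants. Over all 7635 genes the difference between genotypes had a median of 0.03. It was over 1 in 793 genes and under -1 in 248. *Vha100-2*, a membrane subunit, was at 318 to 379 CPM at NC12 and 289.5 to 352 CPM at NC13 in *brat* mutants, against 87.2 to 168 CPM and 10.5 to 29.6 CPM in *HisRFP*. The stress kinase *p38a*, also looked up for its small p, had log2 fold changes of 0.30 and -2.24.

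Some of the genes that the study examined singly showed a contrast of this kind without a call for the interaction. The study showed *rost*, *stmA* and *CG7488* as higher in *brat* mutants at every stage of this series, and *tsh* as increased. The contrast in these genes is therefore not independent evidence. *stmA*, the fly homologue of the membrane protein Efr3, was at 128 to 156 CPM at NC12 and 172 to 184 CPM at NC13 in *brat* mutants (log2 0.30) and had a log2 fold change of -1.07 in *HisRFP* (interaction unadjusted p 0.00132 by edgeR). For *rost*, *CG7488* and *tsh* the *brat*-mutant values were -0.03, 0.00 and -0.08, with SEs of 0.14, 0.13 and 0.40, and the *HisRFP* values -0.94, -0.77 and -1.25. *stg* had -0.11 and -1.78 (interaction unadjusted p 0.0313 by edgeR), and *brat* 0.38 and -1.16 (0.00591). *plu* ran the other way, at -0.77 and 0.41 (0.000332). Of all 7635 genes tested for the interaction, 503 had an unadjusted p under 0.05 by edgeR. *stg*, *brat* and *plu* were measured in the same libraries that the study compared, so they are not independent evidence either. *zfh2* and *FER* were at or below 0.318 CPM in every NC12 embryo and at 0.0262 to 2.90 CPM and 0.341 to 3.46 CPM at NC13.

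**Figure D5:**
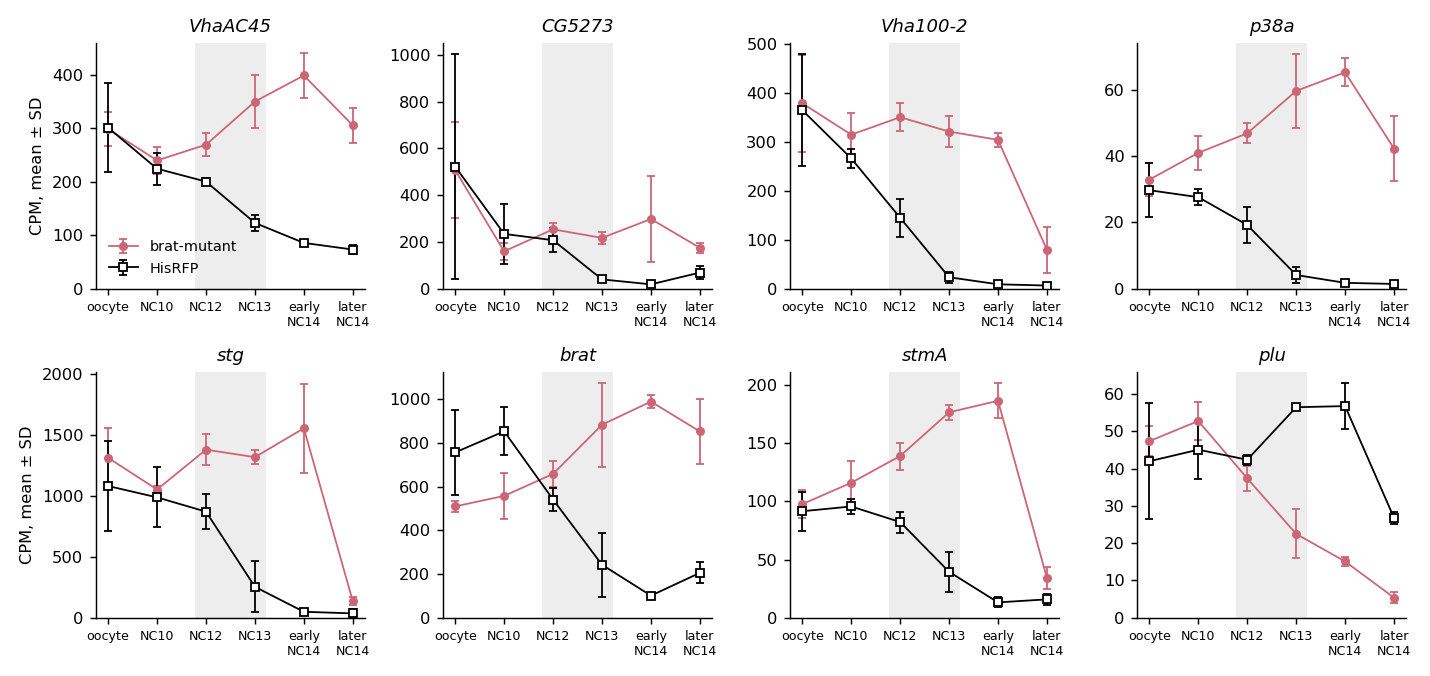
Mean CPM with SD (y axes, linear, from 0) over the 6 stages (x axis, from oocyte to later NC14) of 8 genes in *brat*-mutant (filled circles) and *HisRFP* embryos (open squares), with NC12 and NC13 shaded. *VhaAC45*, *brat* and *stmA* lie higher at NC13 than at NC12 in *brat* mutants and lower in *HisRFP*, and *plu* shows the opposite.

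By stage the course of *stg* in *brat* mutants was 1378 CPM at NC12, 1316 CPM at NC13, 1553 CPM at early NC14 and 136 CPM at later NC14. In *HisRFP* it was 869, 253, 48.8 and 35.5 CPM at these stages. These neighbouring means share libraries with the comparison above and are given as levels only.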

How the data were processed

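Single embryos were staged by nuclear density, and libraries were made with the TruSeq RNA v2 kit. The authors aligned reads to dm6 with HISAT2 2.1.0 and, after filtering with SAMtools, counted them on genes with featureCounts 1.5.3 without strand. The deposited values are raw read counts per gene, unnormalized, for 17510 gene identifiers, of which 99.4% matched the Ensembl annotation of dm6. PCR reads are not independent molecules, so counts overstate precision.

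Counts were fitted with edgeR 4.0.16 in R 4.3.3 (TMM factors, quasi-likelihood F-test, Benjamini-Hochberg), on the 7 libraries compared and genes with at least 50 reads over them. Standard errors were derived from each log2 value and its F statistic, as size over the root of F. DESeq2 1.42.0, used by the study in an earlier version, was the alternative test. CPM used the 10445 genes with at least 50 reads over all 62 libraries. Other alternatives were RLE factors, library totals, filterByExpr, a filter of 1 read, NC13 libraries thinned to the NC12 median, a replicate block, all 62 libraries in a common fit, and each library left out. Same-lettered NC12 and NC13 embryos did not deviate together in *brat* mutants, so letters do not pair them. In *HisRFP* r was positive in each of the 3 pairs (0.264, 0.528 and 0.235), and there the block gave 173 genes higher and 1327 lower. Unlike letters reached similar values there (0.42 for NC12 B with NC13 D and 0.304 for NC12 A with NC13 D). These r values are therefore no evidence that letters pair the *HisRFP* embryos. Tools were tested on simulated data.

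Genes were to be named among those called, by list, size and level. With no gene called by edgeR, the rule was applied to separated genes, a change made after the data were seen. The comparison, lists and rules were chosen with earlier results of these data known. Zygotic classes, clusters and BRAT-binding marks are the study's. Oocytes, *brat* hets and other comparisons were not analysed here beyond levels.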

Additional observations from a re-analysis of the deposited data

Results flagged for a closer look

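Of the genes named, 11 had a single NC12 embryo far from the other 3 in *brat* mutants, a gap that chance gives in about 1 in 20 groups of 4. Many genes were named, so several such gaps can arise by chance alone. Embryo B was far above the others for *Egfr* (7.96 CPM), *D* (70.1 CPM), *CG5273* (293 CPM), *cact* (1230 CPM), *dpn* (13.6 CPM), *nvy* (0.106 CPM) and *wg* (0.318 CPM). The values of *nvy* and *wg* rest on very few reads. Embryo C was far below the others for *mira* (0.436 CPM), *Delta* (281.5 CPM) and *Tl* (1064 CPM). Embryo A was far above for *vnd* (0.266 CPM). NC13 has 3 embryos and was not examined in this way.

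The step from NC12 to NC13 differed between *brat*-mutant and *HisRFP* embryos by edgeR's interaction test for *CG5273* (2.17 on the log2 scale) and *VhaAC45* (1.07 on the log2 scale).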

How the results depend on the processing

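In *brat* mutants edgeR called 0 genes higher and 0 lower under RLE factors, library totals, filterByExpr, thinning, the replicate block and each library left out (0 to 0). DESeq2 called 137 higher and 940 lower, all 62 libraries in a common fit 333 and 1075, and a filter of 1 read 193 and 994. Settings added after seeing the data were DESeq2 with NC13 thinned (116 and 918), DESeq2 without each library (NC12 embryos A 65 and 259, B 183 and 1208, C 59 and 167, D 102 and 568, and NC13 embryos A 39 and 522, C 138 and 1154, D 153 and 877, a range of 39 to 183 higher and 167 to 1208 lower), and both tests without NC13 embryo A and NC12 embryo B (edgeR 107 and 876, DESeq2 107 and 943). The cause of the difference between tests was not tested. Separated genes numbered 131 to 250 higher and 492 to 1364 lower with each library left out. Without NC12 embryo B they were 250 and 1364, without NC13 embryo C 197 and 1171, and without NC13 embryo A 131 and 492. They were 88 higher with NC13 thinned, 81 under filterByExpr and 585 with the filter of 1 read.

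In *HisRFP* embryos counts with each library left out ran from 0 to 201 higher and 0 to 1573 lower, and the common fit called 303 higher. The interaction called 74 positive and 4 negative by DESeq2, 52 and 3 in the common fit, 1 positive with thinning and 0 with the replicate block. With each library left out it called 0 to 22 positive and 0 to 1 negative.

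*Sxl*, whose log2 fold change ran up to 1.68 with a library left out, reversed from 1.17 to -1.13 in DESeq2 without NC13 embryo A and, without NC13 embryo A and NC12 embryo B, to -1.36 in DESeq2 and -1.33 in edgeR. Library totals moved the median of all genes by -0.12. List medians changed sign in at least 1 setting for gap, head patterning, mesoderm, cell cycle, mitochondrial ribosomal protein and oxidative phosphorylation genes, the Later class and study clusters 2 and 6. Depth limits low genes at NC12, where 22 separated genes had no DESeq2 adjusted p. *cup* and *Sry-alpha*, whose exonic bases are all shared with other genes, had too few reads to test. The planned search of promoters for the Zelda motif was not run, because no promoter sequence was used here.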
